A study of Mus musculus with 6 samples.

Results

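Potassium channel genes were taken as the entries of the deposited RNA-seq table whose symbol is Kcn followed by lower-case letters and a number. The rule found 92 genes among 23235 entries, on 19 chromosomes, and the letters after Kcn gave their subfamily. The symbols Kcne1l, Kcnq1ot1 and Kcnrg lay outside the rule and are given apart. RNA was sequenced from E14Tg2a, a single mouse embryonic stem cell (ESC) line, at passages 37 to 40. ESCs grown with LIF, the cytokine that maintains pluripotency, gave 3 samples, and neuronal cells (NCs) gave the other 3. NCs were monolayers of the same line treated with 1 μM retinoic acid (RA) for 48 h without LIF. Their name is the one used for them by the depositors. The table holds 1 FPKM value per gene and condition (fragments mapped to a gene, scaled to its transcript length and to the fragments mapped in all), merged over the 3 samples, so no value carries an SD or an n and the conditions could not be tested against each other.

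Potassium channels let potassium ions leave or enter the cell down their electrochemical gradient, and they set the resting membrane potential and end action potentials. Voltage-gated channels (Kcna, Kcnb, Kcnc, Kcnd, Kcnh, Kcnq) open on depolarisation, and the Kcnf, Kcng, Kcns and Kcnv subunits conduct only in assembly with other voltage-gated subunits. Kcnma1, Kcnn, Kcnt and Kcnu1 channels respond to intracellular calcium, sodium or pH, Kcnj channels are inward rectifiers, and Kcnk channels, with a pair of pore domains in each subunit, carry background (leak) currents. The Kcnab, Kcne, Kcnip and Kcnmb genes encode accessory subunits that alter how the pores open, close or reach the membrane.

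A gene was counted as higher or lower when log2(FPKM + 0.1) differed by at least 1 between NCs and ESCs, a 2-fold limit, and as detected at 1 FPKM or more. Folds are given as the plain ratio of the deposited FPKM, which is larger than the fold on the scale with the pseudocount, most of all for genes at low levels. The labels were checked on genes outside the set. Pou5f1 and Nanog, pluripotency factors, were listed at 832 and 225 FPKM in ESCs and 37.1 and 13.9 in NCs. Cyp26a1 and Rarb, which RA induces directly, were listed at 0.874 and 0.128 FPKM in ESCs and 215 and 25.5 in NCs. Of 5 neural progenitor markers, 3 were higher and 1 lower in NCs, and Pax6 stood at 3.64 FPKM in ESCs and 65.2 in NCs. Of 9 neuron markers, 1 was higher (Dcx, 0.014 to 0.334 FPKM) and 4 were lower, and Tubb3 stood at 33.4 FPKM in ESCs and 7.54 in NCs. The summed FPKM of the neuron markers was 187 in ESCs and 24.9 in NCs, with Stmn2 alone at 142 and 11.8 FPKM. Of the 9, 8 had the lower value in NCs, against the name of these cells, though 4 of the 8 lay within 2-fold. Of 6 endoderm markers, 3 were higher and 0 lower in NCs, and their summed FPKM was 2.53-fold higher. Of 5 fibroblast markers, 4 were higher and 1 lower (Thy1, 9.64 to 1.8 FPKM), and their sum was 2.19-fold higher. By contrast, 0 of 6 glial and 0 of 9 mesoderm and muscle markers passed the limit. Whether a shift in cell types had a part in the differences below was not tested, and in RNA from whole cultures fewer expressing cells and less RNA per cell cannot be told apart.

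The promoters of 6 members are shown because they mark the ends of the set. Kcnj3 had the largest difference in favour of ESCs and Kcnmb4 the largest in favour of NCs, Kcnk5 and Kcnk1 had the highest levels, and Kcng3 and Kcna10 had the most and the fewest CpG dinucleotides among the member windows. Each runs from 250 bases before to 50 bases after the RefSeq transcription start on GRCm38.p6, 5′ to 3′ on the strand of the gene, with CpG dinucleotides in capitals. The windows are chr2:55435720-55436019 (+) for Kcnj3, chr10:116473474-116473773 (-) for Kcnmb4, chr14:20181733-20182032 (-) for Kcnk5, chr8:125994852-125995151 (+) for Kcnk1, chr17:83631846-83632145 (-) for Kcng3 and chr3:107182893-107183192 (+) for Kcna10.
Kcnj3: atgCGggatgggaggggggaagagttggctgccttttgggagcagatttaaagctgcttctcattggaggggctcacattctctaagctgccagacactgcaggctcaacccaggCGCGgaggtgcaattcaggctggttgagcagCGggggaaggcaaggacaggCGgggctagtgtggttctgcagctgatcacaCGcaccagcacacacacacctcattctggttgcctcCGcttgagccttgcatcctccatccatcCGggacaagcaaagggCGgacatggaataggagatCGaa
Kcnmb4: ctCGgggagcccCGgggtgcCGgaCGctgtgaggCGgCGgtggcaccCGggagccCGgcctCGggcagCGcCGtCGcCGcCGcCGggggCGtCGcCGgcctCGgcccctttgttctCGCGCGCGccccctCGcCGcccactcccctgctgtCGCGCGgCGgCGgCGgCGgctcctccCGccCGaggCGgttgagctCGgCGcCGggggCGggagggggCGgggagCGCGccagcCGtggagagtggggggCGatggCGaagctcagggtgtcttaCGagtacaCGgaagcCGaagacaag
Kcnk5: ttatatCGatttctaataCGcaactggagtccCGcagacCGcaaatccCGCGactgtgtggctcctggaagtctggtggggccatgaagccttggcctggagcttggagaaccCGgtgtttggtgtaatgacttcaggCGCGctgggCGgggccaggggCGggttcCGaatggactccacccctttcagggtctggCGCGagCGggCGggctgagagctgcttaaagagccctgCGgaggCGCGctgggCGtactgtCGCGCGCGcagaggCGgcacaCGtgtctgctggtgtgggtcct
Kcnk1: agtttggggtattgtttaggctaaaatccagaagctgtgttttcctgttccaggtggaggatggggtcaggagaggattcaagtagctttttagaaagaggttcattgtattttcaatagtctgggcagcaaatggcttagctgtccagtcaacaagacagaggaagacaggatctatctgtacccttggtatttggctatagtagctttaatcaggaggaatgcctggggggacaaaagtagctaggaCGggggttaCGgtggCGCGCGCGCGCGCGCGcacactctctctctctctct
Kcng3: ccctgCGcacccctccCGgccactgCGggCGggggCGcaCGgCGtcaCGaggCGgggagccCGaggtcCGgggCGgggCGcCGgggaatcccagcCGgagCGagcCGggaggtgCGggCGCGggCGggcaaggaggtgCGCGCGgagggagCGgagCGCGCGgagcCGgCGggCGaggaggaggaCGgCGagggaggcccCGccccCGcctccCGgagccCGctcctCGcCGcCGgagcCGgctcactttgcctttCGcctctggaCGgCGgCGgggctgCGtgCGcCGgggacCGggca
Kcna10: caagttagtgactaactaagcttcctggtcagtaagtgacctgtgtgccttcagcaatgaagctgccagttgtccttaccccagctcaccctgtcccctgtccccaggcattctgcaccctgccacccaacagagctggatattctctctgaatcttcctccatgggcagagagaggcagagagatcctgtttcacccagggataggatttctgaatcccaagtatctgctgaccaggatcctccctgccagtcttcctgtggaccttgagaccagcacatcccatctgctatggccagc

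The Kcnmb4 window held 48 CpG and the Kcng3 window 49, whereas the Kcnj3 and Kcnk1 windows held 10 each. In the Kcnk1 window most of the CpG stood in 1 run of alternating C and G near the start of transcription. The Kcnk5 window held 26 CpG, and the window of Kcna10, which was listed at 0 FPKM in both conditions, held 0. CpG-rich windows were thus found at genes on both sides of the comparison and at genes with little RNA in either condition, such as Kcng3 (0.288 FPKM in ESCs, 0.0329 FPKM in NCs). Of the 92 members, 67 matched the promoter table. Where a gene had more than 1 window, its CpG count was taken as the mean over its windows. Among members under 1 FPKM in both conditions, 17 of 54 (31.5%) had 20 or more CpG, against 9.48% of the 6527 table entries at that level. Among members at 1 FPKM or more in either condition, 4 of 13 (30.8%) did, against 54.9% of 9681 entries. Kcnab2 and Kcnip3 (detected) and Kcnj6, Kcnk2 and Kcnq5 (undetected) each had a window with 20 or more CpG but a mean under 20. Both shares thus depend on the averaging. The median was 10.0 CpG in undetected and 14.5 CpG in detected members, against 3.0 and 21 CpG in the entries as a whole. The windows covered 13 of the 26 detected members and 54 of the 66 undetected ones, so the values for detected members describe only those with a window. The members include some of the entries they are set against, and this description was not tested.

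A pair of short motifs was looked for on both strands of the 92 windows of these members, since a gene may have more than 1 start. AGGTCA, the hexamer that RA receptors and related nuclear receptors bind, was present in 6 windows (6.52%), at Kcna10, Kcnf1, Kcnh1, Kcnip4, Kcnj16 and Kcnk10, against 16.3% of the 32851 windows of all genes. TTCAGCACC, a core stretch of the element bound by the neuronal gene repressor REST, was present in 1 window (1.09%), that of Kcnh6, against 0.371% of all windows. Neither motif contains the other, and no member window held both. A match is a match of letters in the window and no evidence of binding.

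Most potassium channel genes had little RNA in either condition. In ESCs 20 of 92 members (21.7%) reached 1 FPKM, against 53.1% of all entries, and in NCs 22 (23.9%) did, against 54.5%. Both conditions shared 16 detected members, 4 were detected in ESCs alone, 6 in NCs alone and 66 in neither. Of the 66, 24 were under 0.1 FPKM in both conditions. Kcna10, Kcnj1, Kcnk15 and Kcnmb3 were listed at 0 in both, Kcne4 and Kcnk10 at 0 in ESCs and Kcnk9 at 0 in NCs. The median member stood at 0.198 FPKM in ESCs and 0.222 in NCs, against 1.53 and 1.77 FPKM for all entries.

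A few genes carried most of the potassium channel RNA. The members summed to 105 FPKM in ESCs and 79.4 in NCs, 1.32-fold lower, while all entries together were 1.23-fold lower. Without Kcnj3 the members summed to 93.6 FPKM in ESCs and 79.0 in NCs, 1.18-fold lower. Kcnk5, Kcnk1 and Kcnj3 held 42.7% of the members' sum in ESCs, and the 10 highest members held 69.2%. In NCs Kcnk1, Kcnk5 and Kcnh2 held 29.7%, and the 10 highest members held 58.8%. Of the 20 highest members in ESCs, 15 were among the 20 highest in NCs, but of the 5 highest only Kcnk1 and Kcnk5 remained. The Spearman correlation between the conditions was 0.78 over the 92 members and 0.95 over 22969 gene names, a description in which the low members carry the larger counting error. Members also spanned a narrower range, up to 17.4 FPKM in ESCs against 20000 FPKM for all entries, so the correlations are not like for like. The plot of ESC against NC levels shows the spread of the members.

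**Figure D1:**
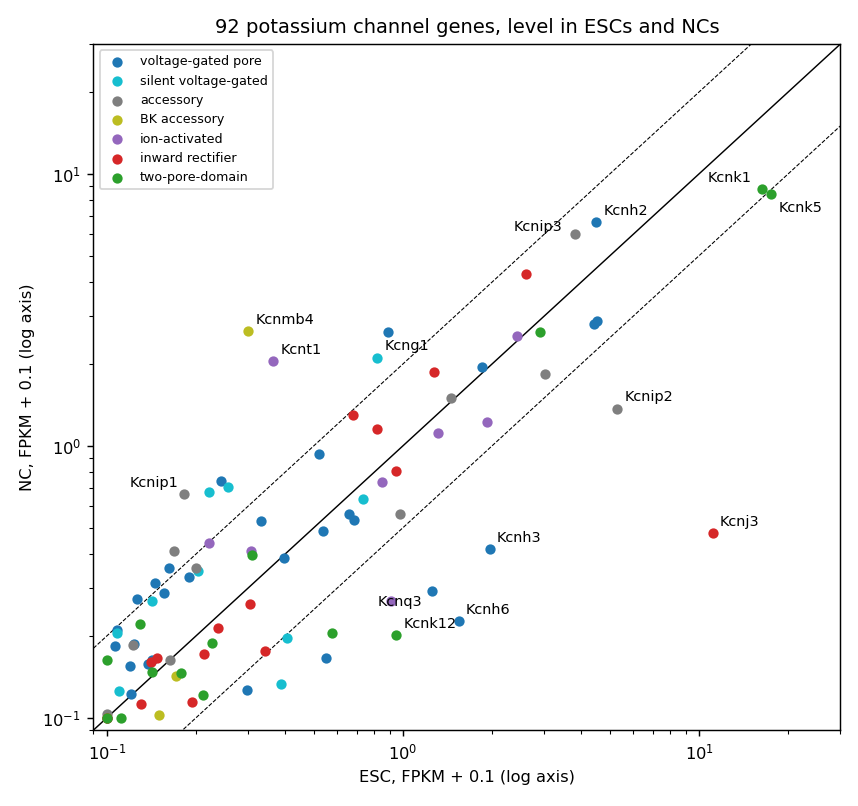
Level of each of the 92 potassium channel genes in ESCs (horizontal) and NCs (vertical), as FPKM + 0.1 on log axes, coloured by role; 1 point is 1 gene, with no replicate values. The solid line marks equal levels and the dashed lines the 2-fold limit; Kcnj3 lies farthest below and Kcnmb4 farthest above.

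Of the 92 members, 12 (13.0%) were higher in NCs, against 9.65% of all entries, and 13 (14.1%) were lower, against 7.57%. The other 67 lay within 2-fold. The median log2 difference was 0.03 for members and 0.00 for all entries, so the members were centred close to 0. Among the 33 members with a mean of at least 0.5 FPKM, 4 (12.1%) were higher, against 11.9% of entries at that level, and 6 (18.2%) were lower, against 10.2%. At that level the share of higher members was near the background and the share of lower members was above it. At a mean of at least 1 FPKM, 4 of 22 members (18.2%) were higher and 4 (18.2%) lower, against 10.7% and 9.64% of entries. The contrast between the directions thus depended on the filter. The counts depend on the pseudocount, because 59 of the 92 members had a mean under 0.5 FPKM. With a pseudocount of 1 there were 2 higher members (2.17%, against 4.62% of entries) and 4 lower (4.35%, against 4.19%), so neither share exceeded the background by more than 1 gene. With 0.01 there were 27 (29.3%, against 14.3%) and 18 (19.6%, against 11.3%). The calls kept under pseudocounts of 1, 0.01 and none, and after centring on the median entry, were Kcnmb4 and Kcnt1 (higher) and Kcnj3, Kcnh6, Kcnh3 and Kcnip2 (lower).

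**Figure D2:**
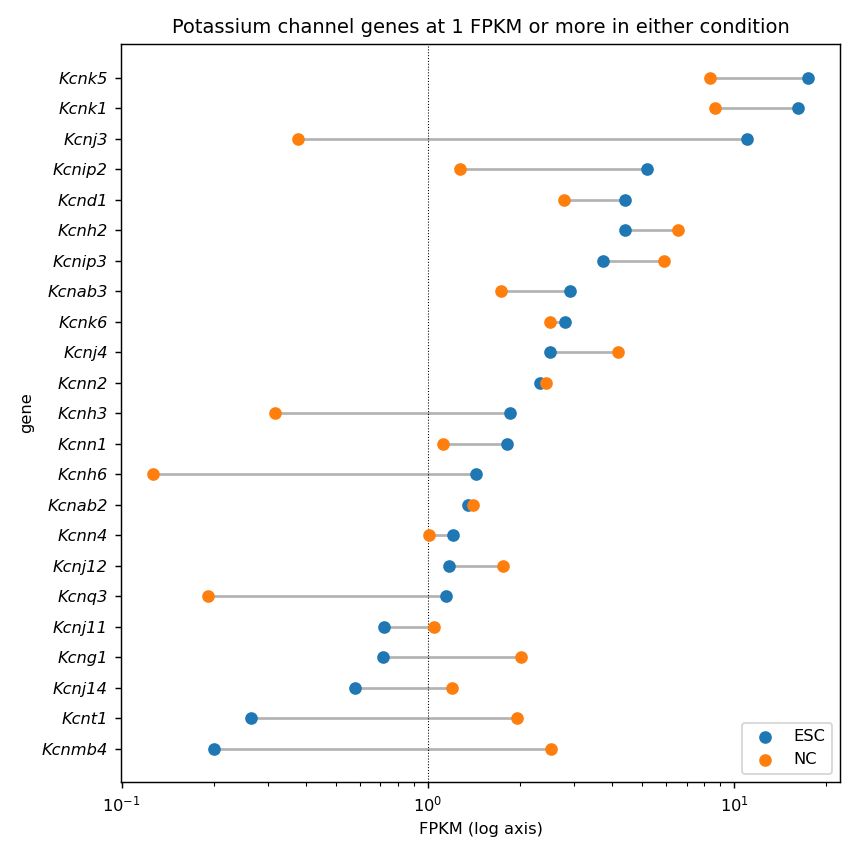
FPKM in ESCs and NCs (log axis) of 23 potassium channel genes at 1 FPKM or more in either condition, ordered by their ESC level; a grey line joins the 2 values of a gene. Kcnj3, Kcnh3, Kcnh6 and Kcnq3 cross the dotted 1 FPKM line downward, and Kcnj11, Kcng1, Kcnj14, Kcnt1 and Kcnmb4 cross it upward.

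The largest difference in the set was in the inward rectifiers. Kcnj3, which encodes a subunit of the GIRK channels that G-protein βγ subunits open, was listed at 11.0 FPKM in ESCs and 0.378 in NCs. It was 29.1-fold lower in NCs (log2 difference -4.54), passed from the third to the 36th place among members, and 59 entries of the table, itself included (0.254%), had a log2 difference as low or lower. Kcnj3 lies on chromosome 2 at 55435970 to 55598145 (GRCm38, plus strand). The gene Gm26794 on the opposite strand covers 31.1% of its annotated exon length, and with no statement that the libraries kept strand, reads of the pair could not be told apart. The other GIRK genes were low in both conditions: Kcnj6 at 0.242 and 0.0756 FPKM, Kcnj9 at 0.138 and 0.113 FPKM, and Kcnj5 at 0.0478 and 0.0662 FPKM in ESCs and NCs. The 4 GIRK genes summed to 11.4 FPKM in ESCs, 96.2% of it Kcnj3, and to 0.632 FPKM in NCs, 18-fold lower.

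No other inward rectifier passed the limit. Of 15 Kcnj genes, 0 were higher and 1 (6.67%) was lower, against 9.65% and 7.57% of all entries. Without Kcnj3 the log2 differences of the other 14 ran from -0.96 to 0.94. The Kir2 genes, whose channels rectify strongly and hold the resting potential, summed to 4.38 FPKM in ESCs and 7.23 in NCs. Kcnj4 was the highest of them in both conditions (2.51 and 4.19 FPKM), followed by Kcnj12 (1.17 and 1.76 FPKM) and Kcnj14 (0.58 and 1.2 FPKM), and Kcnj2 was low (0.112 and 0.0714 FPKM). Kcnj14 had a plain ratio of 2.08 and a log2 difference of 0.94, just inside the limit, and it shares 30.8% of its 50-base words with other genes, so its value depends on how such reads were assigned. Kcnj11, the pore of the ATP-sensitive channel, was listed at 0.719 and 1.05 FPKM, and its sulfonylurea receptor partner Abcc8 at 0.248 and 0.193 FPKM. Kcnj10, a glial inward rectifier in the brain, was listed at 0.847 and 0.704 FPKM. Kcnj8, Kcnj13, Kcnj15 and Kcnj16 were at or under 0.205 FPKM in both conditions, and 49.1% of the exon length of Kcnj13 overlaps Gigyf2 on the opposite strand, an entry listed at 31.9 and 21.9 FPKM.

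The leak channel genes of the Kcnk family gave the highest levels. Kcnk5, an acid- and alkali-sensitive leak channel (TASK-2), stood at 17.4 FPKM in ESCs and 8.35 in NCs, 2.08-fold lower. Kcnk1 (TWIK-1) stood at 16.2 and 8.67 FPKM, 1.87-fold lower and within the limit. The pair kept a similar ratio, with Kcnk5 at 1.07 times Kcnk1 in ESCs and 0.963 times in NCs. Together they held 32.2% of the members' FPKM in ESCs and 21.4% in NCs, and the whole family held 36.7% and 25.7%. Kcnk6 (TWIK-2) was the only other family member at 1 FPKM, at 2.80 FPKM in ESCs and 2.51 in NCs.

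Of 14 Kcnk genes, 0 were higher and 3 (21.4%) were lower in NCs, against 9.65% and 7.57% of all entries. Besides Kcnk5 these were Kcnk12, an electrically quiet relative (THIK-2), at 0.846 and 0.101 FPKM (8.41-fold lower), and Kcnk7, for which no current of its own is known, at 0.476 and 0.104 FPKM (4.59-fold lower). Apart from these 3 and Kcnk1 and Kcnk6, family members ran from 0 to 0.296 FPKM. Kcnk10, which encodes the stretch-sensitive TREK-2, was listed at 0 in ESCs and 0.0633 FPKM in NCs, within the limit (log2 difference 0.71). Against a floor of 3 fragments its plain ratio was at least 11.2. Kcnk2 (TREK-1), also within the limit, was listed at 0.029 and 0.121 FPKM, with 12.2% of its exon length overlapped on the opposite strand. Kcnk16, which lies 79566 bases from Kcnk5 on chromosome 14, was listed at 0.111 and 0.0211 FPKM, with a log2 difference of -0.80 beside the -1.05 of Kcnk5. Kcnk3, Kcnk4, Kcnk9, Kcnk13 and Kcnk18 had log2 differences between -0.29 and 0.36, and Kcnk4 overlaps Catsperz in 13.1% of its exon length.

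**Figure D3:**
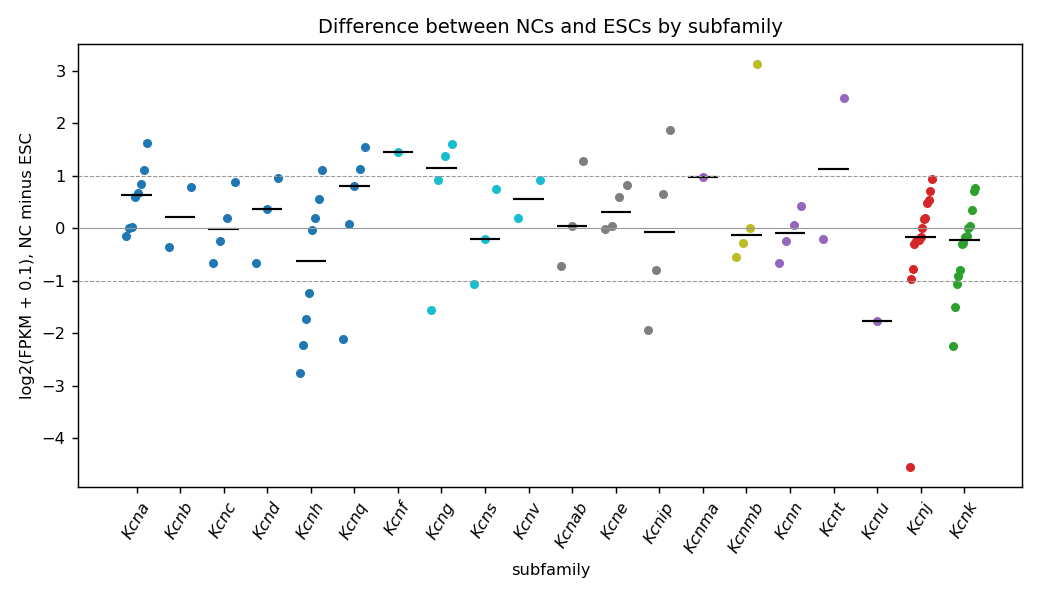
Log2 difference between NCs and ESCs, on FPKM + 0.1, of each member by subfamily; 1 point is 1 gene, black bars are subfamily medians and dashed lines the 2-fold limit. Kcnh runs from -2.76 to 1.11, and Kcnj3 at -4.54 stands apart from the other 14 Kcnj genes.

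Among the 30 voltage-gated pore genes, 5 (16.7%) were higher and 5 (16.7%) lower, against 9.65% and 7.57% of all entries. Of the lower genes, 4 of 5 belonged to Kcnh, the ether-à-go-go family. All 3 genes of its ELK branch were lower in NCs: Kcnh3 at 1.86 and 0.318 FPKM (5.85-fold), Kcnh4 at 0.448 and 0.0656 FPKM (6.84-fold) and Kcnh8 at 0.196 and 0.0264 FPKM (7.41-fold). Channels of the ELK branch open at voltages near rest, and Kcnh3 is known to limit the excitability of neurons. Their summed FPKM was 2.50 in ESCs and 0.41 in NCs, 6.11-fold lower. Only Kcnh3 exceeded 1 FPKM, and in ESCs alone.

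The ERG branch, whose channels repolarise the heart and other excitable cells, was divided. Kcnh6 stood at 1.44 FPKM in ESCs and 0.127 in NCs, 11.3-fold lower. Kcnh2 stood at 4.40 and 6.55 FPKM, 1.49-fold higher and within the limit, and it was the highest voltage-gated gene in NCs. Kcnh2 exceeded Kcnh6 3.06-fold in ESCs and 51.5-fold in NCs, and its share of the ERG sum was 74.9% and 97.3%. Kcnh7 stayed low at 0.038 and 0.057 FPKM. In the EAG branch Kcnh5 was higher in NCs (0.045 and 0.214 FPKM) and Kcnh1 was listed at 0.297 and 0.288 FPKM.

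The Kcnq genes, which include subunits of the M-current that muscarinic receptors inhibit, also went in different directions. Kcnq3 stood at 1.15 FPKM in ESCs and 0.192 in NCs, 6.0-fold lower. Kcnq5 was higher, at 0.0621 and 0.254 FPKM, and Kcnq1, the cardiac and epithelial member, was within the limit at 0.0899 and 0.23 FPKM.

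None of the 8 Kcna (Shaker-type) genes reached 1 FPKM. Kcna5 was higher in NCs at 0.142 and 0.644 FPKM (4.52-fold), and Kcna1, an axonal channel, at 0.0266 and 0.174 FPKM (6.54-fold). The family summed to 1.30 FPKM in ESCs and 2.57 in NCs, and 6 of the 8 genes had the higher value in NCs. Kcna6, which lies 61944 bases from Kcna1, was listed at 0.419 and 0.83 FPKM, with 39.6% of its exon length overlapped by Gm26673 on the opposite strand. Kcna3 and its neighbour Kcna2 had log2 differences of 0.67 and 0.60, and Kcna4 and Kcna7 of 0.02 and -0.15.

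In the Kcnb, Kcnc and Kcnd families, 0 of 9 genes passed the limit, against 9.65% of all entries higher and 7.57% lower. Kcnd1, which encodes the A-type channel Kv4.1, stood at 4.42 FPKM in ESCs and 2.78 in NCs, while Kcnd2 and Kcnd3 were at or under 0.11 FPKM. Kcnb2, Kcnc1 and Kcnd3 had log2 differences of 0.79, 0.89 and 0.96 from ESC values of 0.00639, 0.0556 and 0.00788 FPKM.

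The silent subunits differed in both directions at low levels, with 3 of 10 higher and 2 lower, against 9.65% and 7.57% of all entries. All of these calls were lost with a pseudocount of 1. Kcng1 stood at 0.716 FPKM in ESCs and 2.01 in NCs, 2.81-fold higher, and was the only silent subunit to reach 1 FPKM. Kcng2 (0.121 and 0.577 FPKM) and Kcnf1 (0.157 and 0.602 FPKM) were 4.75-fold and 3.84-fold higher. Kcng3, whose promoter had the most CpG, was 8.77-fold lower, and Kcns2 was lower at 0.306 and 0.096 FPKM. The silent subunits summed to 2.38 FPKM in ESCs and 4.40 in NCs. Kcng4, Kcns1, Kcns3, Kcnv1 and Kcnv2 lay within the limit, between -0.20 and 0.92.

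**Figure D4:**
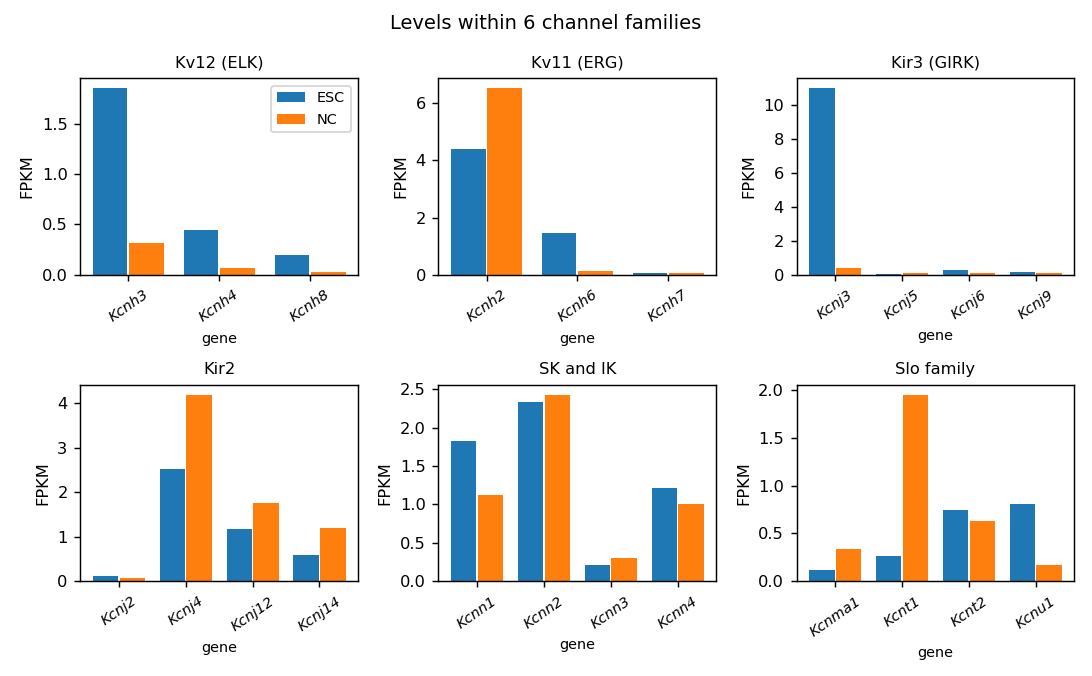
FPKM in ESCs and NCs of the genes of 6 channel families, each panel with its own axis from 0; bars are single merged values without error bars. In the GIRK panel Kcnj3 makes up 96.2% of the ESC sum, and in the Slo panel the highest gene is Kcnu1 in ESCs (0.808 FPKM) and Kcnt1 in NCs (1.95 FPKM).

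The largest difference in favour of NCs was in an accessory subunit. Kcnmb4, the β4 subunit that slows the gating of BK (large-conductance calcium-activated) channels and is abundant in brain, was listed at 0.20 FPKM in ESCs and 2.53 in NCs. It was 12.7-fold higher (log2 difference 3.13), moved from the 46th to the 8th place among members, and 273 entries of the table, itself included (1.17%), had a difference as large or larger. Kcnmb4 lies on chromosome 10 at 116417861 to 116473878 (GRCm38, minus strand), and 31.5% of its exon length overlaps the antisense genes Kcnmb4os1 and Kcnmb4os2. Its pore, Kcnma1, was listed at 0.121 and 0.337 FPKM, with a log2 difference of 0.98 just inside the limit. Kcnmb4 exceeded Kcnma1 1.65-fold in ESCs and 7.5-fold in NCs. Kcnmb1 and Kcnmb2 were under 0.1 FPKM in both conditions and Kcnmb3 was listed at 0.

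Among the 8 genes of channels opened by calcium, sodium or pH, 1 (12.5%) was higher and 1 (12.5%) lower. The shares of all entries were 9.65% and 7.57%. Kcnt1 (Slack), a sodium-activated channel of neurons, stood at 0.264 FPKM in ESCs and 1.95 in NCs, 7.38-fold higher. Its relative Kcnt2 (Slick) stood at 0.748 and 0.633 FPKM. Kcnu1, the pH-sensitive Slo3 channel of sperm, stood at 0.808 and 0.168 FPKM, 4.79-fold lower. The 4 Kcnn genes, calcium-activated channels of small and intermediate conductance, had log2 differences between -0.65 and 0.42. Kcnn2 was the highest of them, at 2.33 and 2.43 FPKM, and was followed by Kcnn1 (1.82 and 1.12 FPKM), Kcnn4 (1.21 and 1.01 FPKM) and Kcnn3 (0.206 and 0.309 FPKM).

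The Kcnip genes encode calcium-binding partners of the Kv4 pores, and their order differed between the conditions. Kcnip2 stood at 5.18 FPKM in ESCs and 1.27 in NCs, 4.07-fold lower. Kcnip3, which is also known as the transcriptional repressor DREAM, stood at 3.72 and 5.89 FPKM, 1.59-fold higher and within the limit. Kcnip2 was thus 1.39 times Kcnip3 in ESCs and 0.216 times Kcnip3 in NCs. Kcnip1 was higher in NCs, at 0.0823 and 0.565 FPKM (6.86-fold), whereas Kcnmb1, which overlaps its locus on chromosome 11, had a log2 difference of -0.27. Kcnip4 was listed at 0.876 and 0.461 FPKM.

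Of the Kcnab genes, whose products bind Shaker-type pores, Kcnab1 was higher (0.0678 and 0.309 FPKM, 4.56-fold). Kcnab2 stood at 1.35 and 1.40 FPKM and Kcnab3 at 2.91 and 1.74 FPKM. The 4 Kcne genes were all at or under 0.256 FPKM. Outside the rule, Kcne1l was listed at 0.381 and 1.68 FPKM, the antisense transcript Kcnq1ot1 at 1.27 and 1.99 FPKM, and Kcnrg at 0.345 and 0.179 FPKM.

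**Figure D5:**
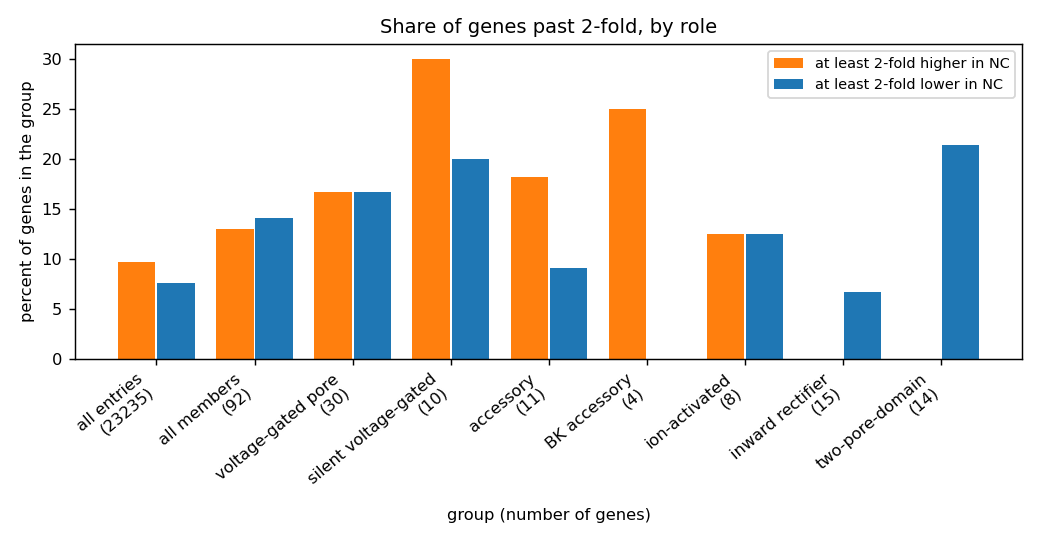
Percentage of genes at least 2-fold higher (orange) or lower (blue) in NCs, for all 23235 entries, the 92 members and each role, with the number of genes in brackets. The inward rectifier and Kcnk (two-pore-domain) groups have no higher gene, and groups of 4 to 15 genes move by several percentage points with 1 gene.

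By role, the higher genes were voltage-gated pores (5), silent subunits (3), accessory subunits including Kcnmb4 (3) and Kcnt1, and the lower genes were voltage-gated pores (5), Kcnk genes (3), silent subunits (2), Kcnip2, Kcnu1 and Kcnj3. Of the 15 inward rectifier and 14 Kcnk genes, 0 were higher, against 9.65% of all entries. These groups were not tested against each other.

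Other genes of potassium handling were counted by the same rule. A list of 11 genes held the 3 Kcn symbols outside the rule and partners of the channels. Of these, 1 (9.09%, Kcne1l) was higher and 0 were lower, against 9.65% and 7.57% of all entries. Amigo1, a Kv2 partner, stood at 2.12 and 3.86 FPKM, and Dpp6, a Kv4 partner, at 0.947 and 0.427 FPKM (log2 difference -0.99). Of 23 potassium pump and cotransporter genes, which build or use the potassium gradient, 0 were higher and 10 (43.5%) were lower in NCs, against 9.65% and 7.57% of all entries. Atp1b1 was listed at 56.6 and 11.1 FPKM and Atp1b2 at 22.8 and 5.81 FPKM, both subunits of the sodium-potassium pump. Another subunit, Atp1b3, was within the limit at 72.9 and 85.1 FPKM. The pump regulators Fxyd6 (153 and 61.1 FPKM) and Fxyd2 (2.85 and 0.80 FPKM) and the proton-potassium pumps Atp4a (1.13 and 0.347 FPKM) and Atp12a (1.06 and 0.343 FPKM) were lower as well. Among 13 anchoring proteins and calmodulins, 0 were higher and 2 (15.4%) were lower, against the same shares of all entries. The lower genes were Cntn2 (1.52 and 0.371 FPKM) and Dlg2 (0.156 and 0.00483 FPKM).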

How the data were processed

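RNA-seq was performed on 3 ESC and 3 NC samples. The authors aligned reads to mm10 (GRCm38) with TopHat2 (2.0.8), which ran Bowtie2 (2.1.0), built transcripts with Cufflinks (2.0.2), joined them with Cuffmerge, and deposited FPKM values estimated by Cuffdiff (version not given in the sources used here), 1 per gene and condition over the 3 samples. The heading of the NC column reads FPK and was taken as FPKM. The authors' own log2 fold changes, test statistics, p-values and q-values in the table were not used. Strandedness of the counting was not stated.

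Differences were computed as log2(FPKM + 0.1), NC minus ESC, over all 23235 entries without a filter. Depth per sample is unknown. From low values of single-transcript genes, read with an assumed fragment length of 200 bases, 3 fragments in 1 effective kb were worth 0.0411 FPKM in ESCs and 0.0405 in NCs. For 1 fragment the larger of the 2 most common low values was taken. These were 0.0119 and 0.0137 in ESCs and 0.0071 and 0.0135 in NCs, and the smaller ones would lower the floor. This reading was chosen after seeing the data and covers counting error only. With 1 side at or under this floor, folds are lower bounds (6 members), and with both under it no fold is given (5). The members, gene lists and families were chosen with earlier results of these data known. Members at 1 FPKM or more, or with 1 of the 10 largest differences in either direction, were given in full, except for some genes whose results are not reported here. Positions and exon overlaps came from GENCODE M21 and promoters from RefSeq (GRCm38.p6). The computation was run on simulated data with 4-fold differences planted in entries at 1 FPKM or more in ESCs. Planted differences at lower levels, where most members lie, were not covered. Alternatives were other pseudocounts, filters, centring, fold and detection limits, and names in 1 row only. Python 3.11.15, numpy 2.4.6, pandas 2.3.3 and matplotlib 3.10.9 were used.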

Additional observations from a re-analysis of the deposited data

How the results depend on the processing

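With 1 merged value per condition, no alternative measures the spread between samples. No paired analysis was possible because the columns carry no replicate values, and leaving out each replicate in turn could not be run for the same reason. With a pseudocount of 1, 2 members were higher and 4 lower, against 4.62% and 4.19% of all entries. With 0.01, 27 were higher and 18 lower, against 14.3% and 11.3% of entries. With no pseudocount, only entries above 0 in both conditions could be used. Among these, 27 members were higher and 18 lower, against 16.2% and 13.2% of entries. Among genes with a mean of at least 0.5 FPKM, 4 were higher and 6 lower and the median log2 difference was -0.21, and of 22 members at a mean of at least 1 FPKM, 4 were higher and 4 lower, against 10.7% and 9.64% of entries at that level. At a 1.5-fold limit 30 were higher and 22 lower, against 16.8% and 14.5% of entries, and at 4-fold 2 and 5, against 3.06% and 2.16%. Centring on the median entry (-0.04) added Kcnma1 to the higher genes. In ESCs 32 members reached 0.5 FPKM and 12 reached 2 FPKM, and in NCs 30 and 12 did. Which condition had more detected members thus depended on the limit. No member changed direction past the limit under these alternatives. Low levels limit the calls: 5 members were under the floor of 3 fragments in both conditions, and 66 never reached 1 FPKM.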
